A study of Mus musculus with 12 samples.

Results

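The genes described here encode 4 enzymes of N6-methyladenosine (m6A), a methyl mark on RNA: the demethylase ALKBH5, the related demethylase FTO, and METTL3 and METTL14, which form the core of the methyltransferase. Their peaks were chosen by position on GRCm39, as every deposited peak overlapping 1 of 4 windows: Alkbh5 at 11:60415000-60460000, Fto at 8:92025000-92060000, Mettl3 at 14:52525000-52550000 and Mettl14 at 3:123155000-123190000. Merged within each mark, the 35 peaks found there made up 11 regions, of 135768 in the whole series. The cells were E14TG2a, an established line of mouse embryonic stem cells, grown in medium with serum and LIF, to which PD0325901 and CHIR99021, inhibitors of MEK and GSK3, had been added. Wild-type (WT) cells were compared with cells labelled Alkbh5 del-cIDR, in which ALKBH5 lacks its C-terminal intrinsically disordered region, with 2 libraries per genotype for each of H3K4me3, H3K27ac and H3K9me3. H3K4me3 and H3K27ac came from CUT&Tag and H3K9me3 from CUT&RUN, which tag or cut chromatin at a bound antibody. The labels name neither the clone, nor the deleted bases, nor the source of the replicates, so the spread between libraries may be technical. The lists held 19033 to 19881 peaks for H3K4me3, 23407 to 33460 for H3K27ac and 21705 to 43785 for H3K9me3, and the depth behind them is unknown.

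In m6A biology METTL3 carries the catalytic site of the methyltransferase and METTL14 holds the RNA substrate, while ALKBH5 and FTO take methyl groups off RNA. H3K4me3 marks the starts of active or poised genes, H3K27ac marks active promoters and enhancers, and H3K9me3 marks heterochromatin. In embryonic stem cells m6A is known for shortening the life of transcripts that maintain pluripotency.

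The promoter sequences are shown because each gene had a single H3K4me3 region and such regions usually lie over CpG-rich starts. RefSeq sequences on GRCm38.p6 matched 3 of the 4 genes, and Mettl14 had no entry. The 250 bases before the start are given 5′ to 3′ on the strand of the gene, plus for Alkbh5 and Fto and minus for Mettl3, with each CpG in capitals. The table and the peak lists use different builds, so the sequences were not placed under the peaks.
Alkbh5: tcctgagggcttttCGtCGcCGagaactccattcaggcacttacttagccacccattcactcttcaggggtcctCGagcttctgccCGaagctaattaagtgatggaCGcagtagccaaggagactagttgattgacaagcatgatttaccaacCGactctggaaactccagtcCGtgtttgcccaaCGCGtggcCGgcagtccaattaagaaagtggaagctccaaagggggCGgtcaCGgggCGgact
Fto: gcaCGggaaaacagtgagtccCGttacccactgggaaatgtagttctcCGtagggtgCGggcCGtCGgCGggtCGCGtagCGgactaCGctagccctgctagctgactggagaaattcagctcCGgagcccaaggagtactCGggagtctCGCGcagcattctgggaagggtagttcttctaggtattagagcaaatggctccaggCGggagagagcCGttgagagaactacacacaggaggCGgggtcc
Mettl3: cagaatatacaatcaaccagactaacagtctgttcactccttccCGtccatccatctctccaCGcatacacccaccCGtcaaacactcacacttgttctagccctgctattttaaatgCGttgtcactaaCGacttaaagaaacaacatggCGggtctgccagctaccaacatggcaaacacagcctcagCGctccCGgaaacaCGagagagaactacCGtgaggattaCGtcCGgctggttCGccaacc
Fto held 18 CpGs, Alkbh5 14 and Mettl3 13, against a median of 6 over 32851 RefSeq promoters. Fewer CpGs than in Fto, Alkbh5 and Mettl3 were found in 78.3%, 70.6% and 68.5% of the promoters. The ratio of observed to expected CpG was 0.768 in Alkbh5, 0.848 in Fto and 0.911 in Mettl3, above that of 78.5%, 84.6% and 89.1% of the promoters. On either strand, the GC box GGGCGG of the SP family occurred 2 times in Alkbh5 and in neither other gene, and it was found in 32.7% of all promoters. CCAAT, the letters bound by NF-Y, occurred 1 time in Alkbh5 (33.8% of all promoters), and ATGGCGG, the YY1 core, 1 time in Mettl3 (2.2%). CCGGAAG of the ETS family had no match in these 250 bases (6.9% of all promoters). These motifs were picked after the sequences had been seen. Fto and its neighbour Rpgrip1l lie on opposite strands, and 198 of the 300 bases listed for the Fto start are also in the window listed for Rpgrip1l, so marks at this promoter cannot be told apart between the 2 genes.

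Each gene carried 1 H3K4me3 region, found in all 4 H3K4me3 libraries, and it was taken as the promoter region. Over all H3K4me3 regions of the series 68.1% were found in all 4 libraries. No annotation of GRCm39 was used, so no position was assigned to an exon, intron or UTR. The regions were 11:60428005-60430296 at Alkbh5, 8:92039642-92040750 at Fto, 14:52541711-52542855 at Mettl3 and 3:123178920-123179939 at Mettl14. H3K27ac overlapped the region in all 4 H3K27ac libraries at Alkbh5, Fto and Mettl3, and in the del-cIDR libraries alone at Mettl14. No H3K9me3 peak fell in any window in any library.

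**Figure D1:**
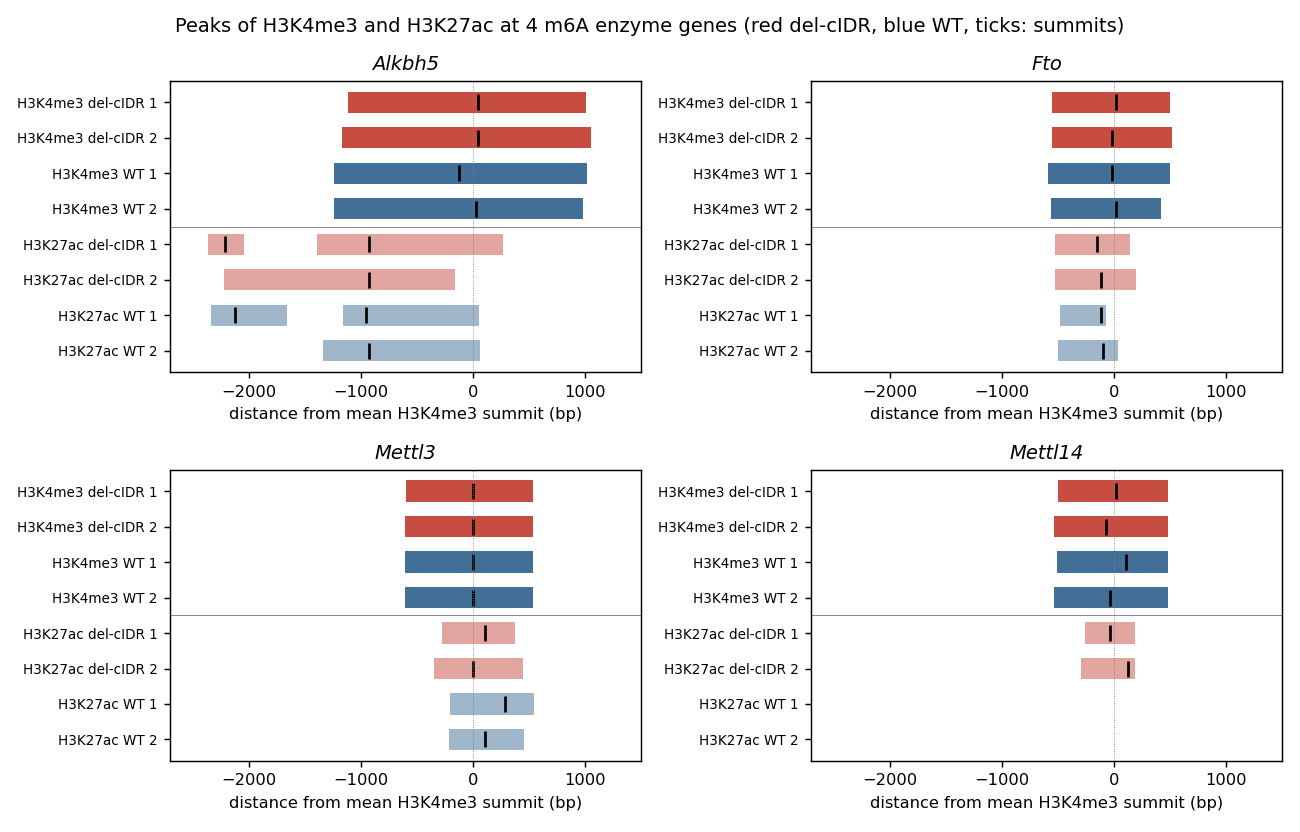
Peaks near the promoter of each gene as bars, 1 row per library, against the distance from the gene's mean H3K4me3 summit in bp; red is del-cIDR, blue is WT, and ticks mark summits. H3K4me3 bars stand in all rows, while H3K27ac has no bar at Mettl14 in either WT library; 3 weaker H3K27ac peaks farther away lie outside the panels.

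The edited gene kept its H3K4me3. The Alkbh5 peak had a fold over the library's own background of 8.31 and 7.24 in del-cIDR replicates 1 and 2, and of 7.17 and 8.16 in WT replicates 1 and 2. The highest and the lowest values were thus split between the genotypes, which overlapped. A fold is made within a library, so for comparison it was turned into a percentile among the 16093 H3K4me3 regions found in all 4 libraries. The percentiles of Alkbh5 were 35.3 and 25.2 in del-cIDR and 24.2 and 34.5 in WT. The means were 30.3 ± 7.18 and 29.4 ± 7.30 (SD, n = 2 each, exact permutation p = 0.667, two-sided). The difference of 0.867 percentile points was smaller than either SD. With 2 libraries against 2, this test gives no p below 0.333.

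The Alkbh5 region was wide and of modest fold. Its peak spanned 2122 and 2216 bp in del-cIDR and 2253 and 2226 bp in WT, where the median over shared regions was 1075 bp. In bases under peaks it stood between the 96.3th and the 97.7th percentile in each library. The del-cIDR peaks were narrower than both WT peaks, 2169 ± 66.5 against 2239.5 ± 19.1 bp (SD, n = 2 each, exact permutation p = 0.333). Of all shared H3K4me3 regions 21.7% were narrower in both del-cIDR libraries than in both WT libraries, and 18.1% were wider. The difference lay at the edge of lower coordinate, on the upstream side of this plus-strand gene. That edge was at 60428131 and 60428081 in del-cIDR and at 60428007 and 60428005 in WT, a mean shift of 100 bp (exact permutation p = 0.333, n = 2 each), while the other edge, from 60430230 to 60430296, overlapped between genotypes. The median span of this edge over the 4 libraries was 103 bp for all shared regions, and in 18.5% of them the edge was higher in both del-cIDR libraries. The edge of Fto was also higher in both, at 92039680 and 92039674 against 92039642 and 92039670. Summits of Alkbh5 lay at 60429295 and 60429293 in del-cIDR and at 60429125 and 60429270 in WT (exact permutation p = 0.333, n = 2 each). Their span over the 4 libraries was 170 bp, where the median of shared regions was 144 bp and 58.8% had a smaller span.

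**Figure D2:**
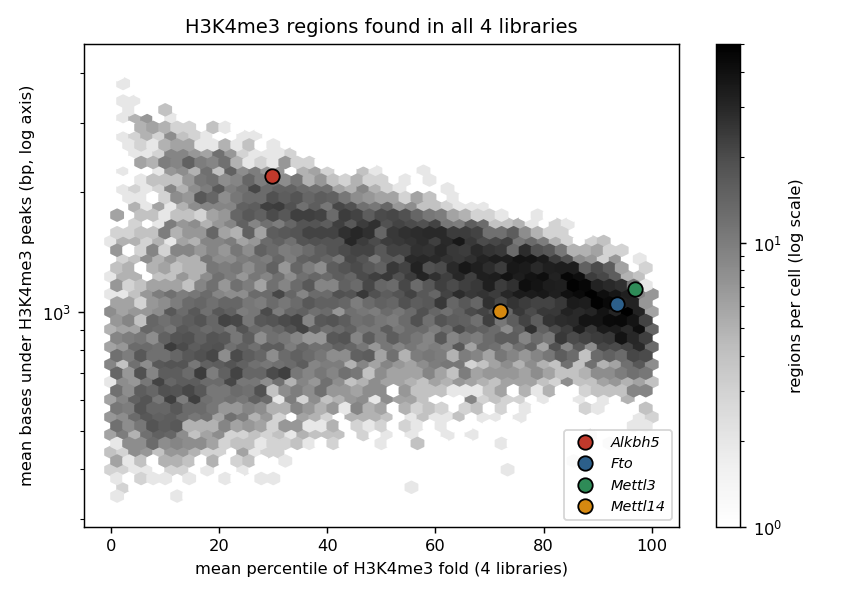
Mean percentile of H3K4me3 fold (x axis) against mean bases under H3K4me3 peaks (y axis, bp, log axis) for the 16093 regions found in all 4 libraries, with grey for the number of regions and points for the 4 genes. Alkbh5 lies high and to the left, with about the 30th percentile of fold, and Fto and Mettl3 lie at the right.

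Fto, whose locus is known for its link to body mass, had a narrower and steeper H3K4me3 peak. Its fold was 15.5 and 14.6 in del-cIDR and 14.2 and 14.8 in WT, and the genotypes overlapped. The percentiles were 94.5 ± 1.98 and 92.7 ± 2.45 (SD, n = 2 each, exact permutation p = 0.667). Widths were 1050 and 1077 bp in del-cIDR and 1088 and 978 bp in WT.

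Among the writers, Mettl3 had the most even H3K4me3 peak. Its fold was 15.05 and 16.2 in del-cIDR and 16.2 and 15.8 in WT, at percentiles of 96.2 ± 2.75 and 97.8 ± 0.299 (SD, n = 2 each, exact permutation p = 1). Widths ran from 1137 to 1145 bp, and the summit was at 52542319 in 3 libraries and 1 bp lower in WT replicate 1. Only 3.96% of shared regions had a smaller spread of summits. Mettl14 was lower, with a fold of 11.7 and 12.4 in del-cIDR and of 11.04 and 11.96 in WT. Its percentiles of 74.3 ± 4.97 and 69.7 ± 6.60 did not differ beyond their spread (SD, n = 2 each, exact permutation p = 0.667). The peak ended at 123179939 in all 4 libraries and was 981 to 1020 bp wide.

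Ordered by fold, Mettl3 and Fto came first, followed by Mettl14 and then Alkbh5, in each H3K4me3 library. Mettl3 and Fto changed places in del-cIDR replicate 1, so this pair of neighbours was not separated. By −log10 q, the caller's measure of certainty, Alkbh5 moved up. Its values were 180.0 and 167 in del-cIDR and 127 and 177 in WT, above Fto (97.8 to 109) and Mettl14 (44.8 to 67.6) in each library. None of the 4 genes had H3K4me3 percentiles that parted the genotypes, a pattern seen in 19.4% of shared regions toward del-cIDR and in 19.4% toward WT.

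**Figure D3:**
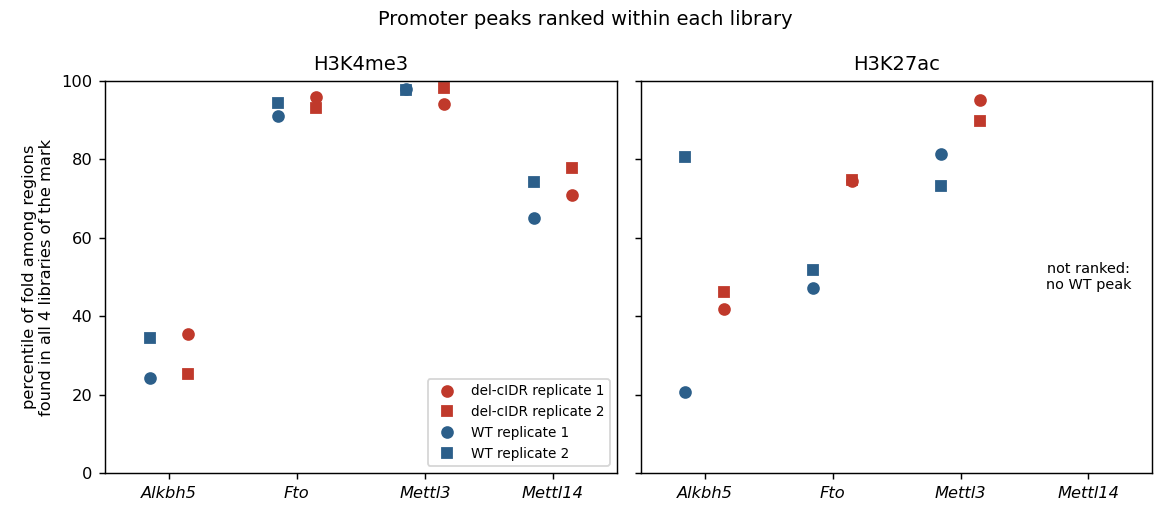
Percentile of fold for the promoter region of each gene among the regions found in all 4 libraries of the mark (y axis), for H3K4me3 on the left and H3K27ac on the right; red is del-cIDR, blue is WT, circles are replicate 1 and squares replicate 2. H3K4me3 points of the genotypes overlap at every gene, whereas at Fto and Mettl3 both del-cIDR points of H3K27ac lie above both WT points.

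H3K27ac was also kept at Alkbh5. The merged region 11:60426883-60429512 held peaks in all 4 libraries, as did 26.7% of all H3K27ac regions. The highest peak of that region had a fold of 5.63 and 6.16 in del-cIDR and of 4.38 and 7.27 in WT. In WT replicate 1 this was a peak upstream of the H3K4me3 region. The peak over the H3K4me3 region in that library, 60428083-60429300, had a fold of 3.74 and a −log10 q of 4.19. WT replicate 1 was the lowest and WT replicate 2 the highest, so both del-cIDR libraries lay between them. The percentiles were 41.7 and 46.2 in del-cIDR and 20.6 and 80.6 in WT (44.0 ± 3.19 against 50.6 ± 42.4, SD, n = 2 each, exact permutation p = 1). The sign rested on 1 library, as the difference of -6.63 points was -35.2 without WT replicate 1 and 24.5 without WT replicate 2. With the peak over the H3K4me3 region used in every library, WT replicate 1 stood at the 8.15th percentile and the difference was -0.403 points (exact permutation p = 1, n = 2 each). Bases under peaks were 1978 and 2057 in del-cIDR and 1893 and 1403 in WT, higher in both del-cIDR libraries (exact permutation p = 0.333). The same order held in 35.1% of the 13460 H3K27ac regions of all 4 libraries and the reverse in 9.42%, beside lists that covered 20.4 and 22.7 Mb in del-cIDR and 17.6 and 15.1 Mb in WT. With every list cut to the length of the shortest, all these peaks were kept, and the difference in bases stayed at 369.5. A kept peak keeps its width, so the cut could not test the part of list coverage in this difference. Ranked within each library, the bases were also higher in both del-cIDR libraries (97.4th and 97.8th against 97.2th and 91.9th percentile), an order found in 18.4% of shared regions.

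At Alkbh5 the 2 marks peaked at different places. The highest H3K27ac peak over the H3K4me3 region had its summit between 60428291 and 60428321 in the 4 libraries, a span of 30 bp. Taking each H3K27ac library with each H3K4me3 library, these points lay 804 to 1004 bp below the H3K4me3 summits, on the upstream side of the gene. A separate peak farther upstream stood at 60426883-60427205 in del-cIDR replicate 1 (fold 3.37) and at 60426911-60427585 in WT replicate 1 (fold 4.38). In del-cIDR replicate 2 a single peak, 60427030-60429086, covered most of both stretches, and WT replicate 2 had no peak upstream of 60427909. With the highest peak of each merged region, the mean offset at Alkbh5 was -1225 bp, and it was -926 bp without WT replicate 1, whose highest peak was the upstream one. Over 6713 regions that carried both marks in all libraries the median offset was 143 bp in size, and 97.7% had a smaller one than Alkbh5 (96.0% without WT replicate 1). Narrow regions leave less room for an offset, and the Alkbh5 regions were among the widest for both marks. The offset was not ranked among regions of like width, so this rank may restate the width. At Fto the summits of the marks lay 81 to 174 bp apart and at Mettl3 up to 286 bp (up to 112 bp without H3K27ac WT replicate 1). H3K27ac peaks covered 45.4% to 65.1% of the H3K4me3 bases of Alkbh5, a range that overlapped those of Fto (37.8% to 66.8%) and Mettl3 (56.7% to 69.8%).

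**Figure D4:**
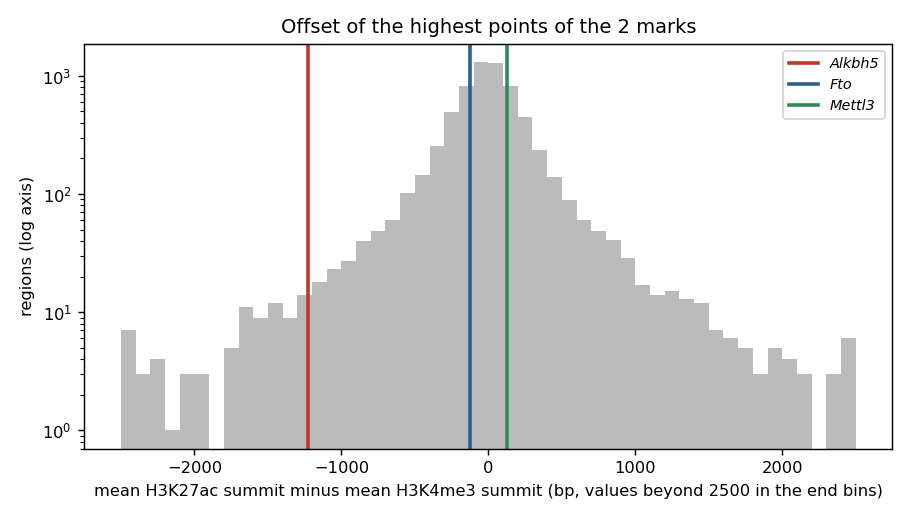
Mean H3K27ac summit minus mean H3K4me3 summit (x axis, bp) for the 6713 regions with both marks in all libraries, as a histogram with a log axis for the number of regions, and lines for 3 genes. Fto (-123.5 bp) and Mettl3 (125.5 bp) lie near the centre, and Alkbh5 (-1225 bp) in the tail of lower coordinates.

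The C-terminal coding end of Alkbh5 lies toward higher coordinates. Past the promoter region's end at 60430296, over the 29.7 kb to the window's end at 60460000, no list of any mark or genotype held a peak. The peaks compared here thus all lie in 1 stretch of the window, and since the position of the deletion is not given in the labels, no peak could be set against the deleted bases. On the other side, the first 11.9 kb of the window were free of peaks too.

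H3K27ac percentiles were higher in both del-cIDR libraries at Fto and Mettl3, in a design whose smallest p is 0.333. The Fto peak, in region 8:92039704-92040422, had a fold of 7.30 and 7.85 in del-cIDR and of 5.44 and 5.72 in WT. Its percentiles were 74.4 and 74.7 against 47.3 and 51.7, and the groups did not overlap. The means of 74.5 ± 0.184 and 49.5 ± 3.13 differed by 25.02 points (SD, n = 2 each, exact permutation p = 0.333), and 85.0% of shared regions had a smaller difference between genotypes in either direction. The peak spanned 665 and 719 bp in del-cIDR and 411 and 531 bp in WT (exact permutation p = 0.333, n = 2 each). Of shared H3K27ac regions 35.1% were wider in both del-cIDR libraries and 9.42% were narrower, beside del-cIDR lists that covered more bases. The Mettl3 peak, in region 14:52541970-52542860, had a fold of 9.89 and 9.44 in del-cIDR and of 7.20 and 6.76 in WT. Its percentiles of 95.1 and 89.9 were above the WT values of 81.4 and 73.2 (92.5 ± 3.70 against 77.3 ± 5.79, SD, n = 2 each, exact permutation p = 0.333). The difference of 15.2 points was larger than that of 65.6% of shared regions. The widths of Mettl3 overlapped, with 645 and 799 bp in del-cIDR and 750 and 665 bp in WT. Ranked within each library, its width went the other way from its fold, with percentiles of 26.4 and 41.0 in del-cIDR below 44.8 and 42.9 in WT (exact permutation p = 0.333, n = 2 each), an order found in 23.5% of shared regions. In percentile of fold 19.8% of shared H3K27ac regions were higher in both del-cIDR libraries and 20.5% were lower, and 2 of the 3 genes that could be ranked were among the higher ones.

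Mettl14 was the gene whose promoter H3K27ac was found in a single genotype. Region 3:123179169-123179642 had a fold of 5.59 and 7.39 and a −log10 q of 5.46 and 9.13 in del-cIDR replicates 1 and 2. Neither WT list held a peak there, which means a signal under the caller's limit (weakest peaks at a −log10 q of 1.31 and 1.30), not an absence of acetylation. It was 1 of the 7 H3K27ac regions in the windows, and over the series 6.42% of H3K27ac regions had both del-cIDR libraries and no WT library, against 1.83% for the reverse. Among the 16093 shared H3K4me3 regions, 42.0% had H3K27ac in all 4 libraries and 5.96% in the del-cIDR pair without the WT pair. The del-cIDR lists were longer, with 28853 and 33460 peaks against 25804 and 23407. With every list cut to 23407 peaks by p-value, the Mettl14 peak was still in both del-cIDR lists. The cut only takes peaks away, so no WT list could have gained one. Whether the WT signal stayed under the limit because of depth was not tested. The H3K4me3 peak over the same bases did not part the genotypes, as given above.

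The remaining 3 H3K27ac regions of the windows were found in 1 library each, in these 3 cases a del-cIDR library. Over the series 29.1% of H3K27ac regions were found in a single del-cIDR library and 17.2% in a single WT library. Near Fto they were 8:92054475-92054779 in replicate 1 (fold 3.54) and 8:92053744-92054146 in replicate 2 (fold 3.60). In the Mettl14 window 3:123171916-123172273 was found in replicate 1 (fold 3.29). All 3 were weak, with a −log10 q of 1.69 to 2.12, below the median of their lists (5.85 and 5.89).

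H3K9me3, the mark of silenced chromatin, had no called peak at any of these genes, and signal under the caller's limit is not seen. Of the peaks in the 4 lists, 0 fell in the 140 kb of the windows. Such stretches are common: from 55.7% to 74.1% of all 45-kb tiles between the first and last peak of each chromosome but Y, the length of the Alkbh5 window, had no peak, depending on the library. The nearest H3K9me3 peak to the Alkbh5 promoter region lay 652, 652 and 755 kb away in both del-cIDR replicates and WT replicate 2, and 300 kb away in WT replicate 1. At Fto the distance was 80.4 to 80.8 kb and at Mettl3 58.8 kb, almost the same in the 4 libraries. At Mettl14 it was 28.8 and 58.4 kb in del-cIDR and 84.5 and 75.6 kb in WT, shorter in both del-cIDR libraries. Of the 16093 shared H3K4me3 regions 28.0% had this order and 5.63% the reverse, beside H3K9me3 lists that covered 26.7 and 35.2 Mb in del-cIDR and 10.1 and 30.9 Mb in WT. The part of list length in this distance was not tested.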

How the data were processed

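H3K4me3, H3K27ac and H3K9me3 were measured in 12 libraries, 2 per mark and genotype. Per the submitters' processing notes the build was GRCm39 and the tools included MACS2, BWA, fastp, Picard, SAMtools and featureCounts. Their versions and settings, and any control library, are not stated in the labels. The authors deposited 1 peak list per library, with a fold (a ratio over that library's background) and the −log10 of p and q per peak. Lists hold no read counts, so depth is unknown and no counting interval was given.

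Peaks on chromosomes 1 to 19, X and Y were merged within a mark when they overlapped by at least 1 bp (Python 3.11.15, pandas 2.3.3), after a test on simulated lists. A region's fold is its highest peak's, ranked among the regions found in all 4 libraries. Two-sided exact permutation tests over libraries compared the genotypes. All 4 genes are named, with every peak in their windows. The windows, members and lists were chosen with earlier results of these data known. Other m6A genes and stem cell markers were not placed, because the gene table at hand was on GRCm38.p6, and it served for names, neighbours and sequences only. Alternatives were a −log10 q of at least 5, lists of equal length, merging within 1000 bp, an overlap of 50% of the peak, the mean fold, ranks in a library's own list, leaving out each library and a replicate block. The H3K27ac summits and ranks from peaks over the H3K4me3 region, and offsets without WT replicate 1, were added after seeing the data.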

Additional observations from a re-analysis of the deposited data

How the results depend on the processing

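Of 176 recomputed values 160 kept their direction or count, and no test could pass at 2 libraries against 2. Part of the 160 could not have changed, so this share is not a measure of robustness. The values of a replicate block are fixed, as given below. With no H3K9me3 peak in the windows, leaving out peaks or libraries could not raise the H3K9me3 counts. For bases under peaks, merging within 1000 bp and the alternative overlap rule gave values identical to the main ones at every gene. Ranked among all peaks of a library's list, the Alkbh5 difference, del-cIDR minus WT, was -0.168 points for H3K4me3 and 5.11 for H3K27ac, the reverse of the main signs. Leaving out 1 library gave -4.30 to 6.04 (Alkbh5), 0.104 to 3.49 (Fto), -3.52 to 0.270 (Mettl3) and -0.0454 to 9.08 (Mettl14) for the H3K4me3 percentile, and -35.2 to 24.5 (Alkbh5), 21.4 to 25.3 (Fto) and 9.66 to 17.5 (Mettl3) for H3K27ac. For bases under H3K4me3 peaks it gave -117.5 to -23.5 (Alkbh5), -24.5 to 85.5 (Fto), -5.5 to 2.5 (Mettl3) and -22 to 17 (Mettl14). For H3K27ac bases it gave 124.5 to 614.5, 499 to 651, -62.5 to 91.5 and 474 to 797 in the same order. With peaks at a −log10 q of at least 5 the H3K27ac bases differed by 817 at Alkbh5 and 221 at Fto, against 369.5 and 575 with all peaks. At Alkbh5 this limit drops the WT replicate 1 peak over the H3K4me3 region and the upstream peak of del-cIDR replicate 1. At Fto it drops the weak peak that each del-cIDR library had outside the promoter region. Lists of equal length also gave 221 at Fto, while the leave-one-out range of 499 to 651 includes these weak peaks. H3K27ac regions of a single genotype numbered 1 to 3 with 1 library left out, since fewer libraries then have to carry a peak. They numbered 2 with peaks merged within 1000 bp, which joins the weak pair near Fto. Within a replicate block the values are the same by construction (25.02 points for H3K27ac at Fto) and the smallest p is 0.5. Same-numbered replicates did not deviate together in H3K4me3 and H3K27ac (correlations of 0.00322 and 0.00478) and weakly in H3K9me3 (0.131). The lists hold only peaks past a q of 0.05 (H3K4me3, H3K27ac) or 0.1 (H3K9me3), so weaker signal is not seen.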
